A study of Mus musculus with 20 samples.

Results

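The genes described are 9 members of the Egr, Nr4a and Ier families of early-response genes: Egr1, Egr2, Egr3, Nr4a1, Nr4a2, Nr4a3, Ier2, Ier3 and Ier5. They were chosen by name, as every probe set whose platform annotation carries one of these symbols, which gave 20 of the 34945 probe sets with a single gene. All 9 genes were among the 12832 of 18193 genes that passed the filter on low signals, through 14 of the 20 probe sets. The samples were 20 arrays of whole liver from male C57BL/6 mice aged 8 to 12 weeks. There were 5 groups: controls that were not manipulated (n = 5), mice with minor trauma (n = 3), mice taken at the end of severe trauma and hemorrhagic shock lasting 1.5 h (n = 4, called shock here), and mice given this injury and then resuscitated for 1 h (n = 4) or 4.5 h (n = 4). The sources used here do not say what the minor trauma was or when those livers were taken. They mention anesthesia and surgery but give no group that had these without injury, so handling and injury cannot be told apart against the controls. Nothing says whether the replicates of a group came from separate days, and the p-values measure the spread between these arrays. In whole liver, fewer cells of a type and less RNA per cell cannot be told apart.

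Early-response genes are transcribed within minutes of a stimulus from promoters that are already loaded, without the need for new protein, and their mRNAs are short-lived. Egr1, Egr2 and Egr3 encode zinc-finger transcription factors that bind GC-rich sites. Nr4a1 (Nur77), Nr4a2 (Nurr1) and Nr4a3 (Nor1) encode orphan nuclear receptors, which act without a known hormone ligand. In liver, Nr4a receptors are known for the induction of glucose-producing genes by glucagon and cAMP. Ier2 encodes a small nuclear protein, Ier3 (also called Iex-1) a short protein that affects cell survival and is a target of NF-kB, and Ier5 a nuclear protein tied to activation of heat shock factor.

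The promoters of the Nr4a genes and of Ier3 are printed here to show which motifs they share and which they do not. The sequences are the 250 bases before the start site in the RefSeq promoter table (build GRCm38.p6), read 5′ to 3′ on the strand of the gene. They lie at chr15:101266596-101266845 (+) for Nr4a1, chr2:57124004-57124253 (-) for Nr4a2, chr4:48045055-48045304 (+) for Nr4a3 and chr17:35821463-35821712 (+) for Ier3. Both strands of the 250 bases before and the 50 after each start were searched, and capitals mark the matches that lie wholly before the start. The motifs were the cAMP response element (TGACGTCA) and its core (TGACG), the CArG box of serum response factor, the EGR consensus site (GCGNGGGCG), the Nr4a site NBRE (AAAGGTCA), the kappa-B motif and the TATA box (TATAAA). The full element contains its core.
Nr4a1: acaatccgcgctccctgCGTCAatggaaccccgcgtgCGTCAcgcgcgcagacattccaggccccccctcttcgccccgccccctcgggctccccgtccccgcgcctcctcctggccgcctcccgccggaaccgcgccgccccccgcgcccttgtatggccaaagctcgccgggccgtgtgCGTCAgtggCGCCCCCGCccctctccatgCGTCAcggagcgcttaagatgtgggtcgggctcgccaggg
Nr4a2: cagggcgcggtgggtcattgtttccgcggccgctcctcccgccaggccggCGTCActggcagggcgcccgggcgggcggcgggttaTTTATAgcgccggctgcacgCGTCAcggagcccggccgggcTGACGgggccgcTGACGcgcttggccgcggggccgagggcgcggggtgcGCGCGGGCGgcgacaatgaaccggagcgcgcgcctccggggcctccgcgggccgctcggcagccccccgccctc
Nr4a3: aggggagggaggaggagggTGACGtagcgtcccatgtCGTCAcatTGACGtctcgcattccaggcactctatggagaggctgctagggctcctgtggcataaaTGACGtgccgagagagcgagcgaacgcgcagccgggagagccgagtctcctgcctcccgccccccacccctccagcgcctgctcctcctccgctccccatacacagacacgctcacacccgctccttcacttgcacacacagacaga
Ier3: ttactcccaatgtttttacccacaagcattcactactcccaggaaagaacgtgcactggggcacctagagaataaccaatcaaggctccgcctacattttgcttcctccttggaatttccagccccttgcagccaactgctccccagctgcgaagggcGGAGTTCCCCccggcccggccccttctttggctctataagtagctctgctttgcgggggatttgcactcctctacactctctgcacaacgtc

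Each of the 3 Nr4a promoters held 4 copies of the cAMP response element core. Over the 32851 promoters of the table, 20.8% held at least 1 copy and 0.231% held at least 4. The Nr4a1 and Nr4a2 promoters also held an EGR consensus site, at 60 to 52 and at 74 to 66 bases before the start, which 5.55% of all promoters did. Both promoters are rich in G and C, at 72.3% and 81.7% over the bases searched, against a median of 52.7% over all promoters. Nr4a3 had 64.7%. The Ier3 promoter held a kappa-B motif at 92 to 83 bases before the start, Nr4a1 held one that spans the start and 1 of the 5 Egr2 entries held a pair that overlap, while 8.46% of all promoters held at least 1. A CArG box, found in 1.63% of all promoters, stood in 4 of the 5 Egr2 entries, 3 of which overlap and hold the same box. The 30 bases around that shared box (chr10:67537789-67537818, + strand, GRCm38.p6) are shown, with the box and a core of the cAMP response element in capitals.
Egr2: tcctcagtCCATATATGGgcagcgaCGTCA
Of the 9 genes, 6 had entries in the table, 10 in all, and the Ier5 entry held none of these motifs within the 250 bases. The full cAMP response element (1.79% of all promoters) and the NBRE (1.51%) were found in none of the 10 entries. These are matches of letters and do not show that a factor binds there.

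Levels are given as log2 of the deposited signal plus 6 after quantile normalization, on which scale the median of every array was 4.60, and a level is never set against that of another gene. A difference is on the same scale, and a gene was called in a comparison when limma's p, adjusted over all 12832 genes by Benjamini and Hochberg, was at most 0.05. The arrays fell into 10 with a high signal of the poly-A spike-in dap (588 to 2710, as deposited) and 10 with a low one (0.153 to 5.55), and every group held both kinds. Control array 5 correlated best with minor trauma array 2 (r = 0.9827 over all genes tested), and minor trauma array 3 correlated least with its own group (mean r = 0.9474). Leaving out control array 5 and minor trauma array 3 changed none of the counts of called members given below. Of the 10 hepatocyte markers 8 were tested, and against control limma called none in shock or in minor trauma (1 and 0 had an unadjusted p under 0.05). Most of these markers lay far above the array median, such as Alb, Apoa1 and Ttr with control means of 13.21, 13.43 and 13.19. Whether such high signals can still show a change was not tested. Ass1 was lower at 1 h (mean 5.53 at 1 h, against 7.32 in controls), and at 4.5 h Cps1 was lower (-0.19 ± 0.04) and Hnf4a higher (0.31 ± 0.11). Of all genes 5.31% were lower than in controls at 1 h, and 15.1% were higher and 23.8% lower at 4.5 h.

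Over the 5 groups, 7 of the 9 genes differed by limma's F test and Egr3 and Nr4a2 did not, while 45.4% of all genes passed the same test. None of the 9 was called in minor trauma against control, where 3.44% of all genes were called in either direction. At the end of shock 5 were higher than in controls, Egr1, Egr2, Nr4a1, Ier2 and Ier3, and none was lower, while 2.03% of all genes were higher. After 1 h of resuscitation 7 were higher than in controls, Nr4a3 and Ier5 joining these 5, and 4.61% of all genes were higher. After 4.5 h 5 were higher than in controls, Egr1, Egr2, Nr4a1, Ier3 and Ier5, and 15.1% of all genes were higher. Over the 9 genes the median difference from control was 0.04 for minor trauma, 0.90 for shock, 1.98 after 1 h and 0.82 after 4.5 h, against -0.002, -0.028, -0.071 and -0.089 over all genes. With genes below the array median held at their bound, the last 3 medians of the 9 genes became 0.56, 1.94 and 0.18. These 4 comparisons share the control arrays. Egr2 and Nr4a3 passed the filter on low signals only through arrays of shock and resuscitation, and were below the array median on every control and minor trauma array, so the filter favours a difference for them. Without these 2 genes, left out after their values were seen, 4 of the other 7 were higher than in controls in shock, 5 at 1 h and 4 at 4.5 h. Their own p-values are given from a fit with no filter, adjusted over 18193 genes, which called them in the same comparisons.

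**Figure D1:**
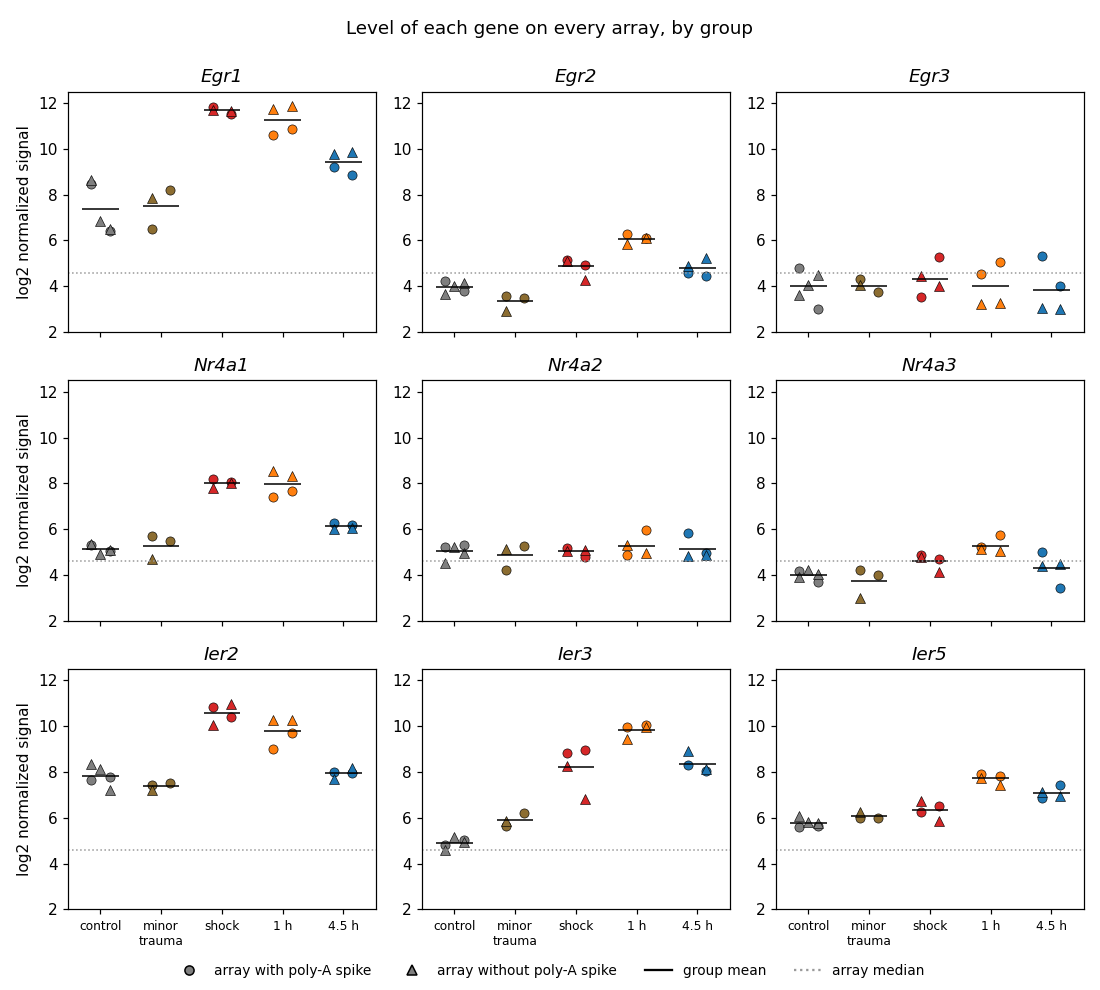
Log2 normalized signal of each of the 9 genes on every array, by group from control to 4.5 h of resuscitation. Points are arrays (circles with and triangles without the poly-A spike-in), bars are group means and the dotted line is the array median of 4.60; Egr1, Nr4a1, Ier2 and Ier3 stand 2.74 to 4.30 above control at the end of shock, while Egr3 and Nr4a2 were called in no comparison by the probe set that stands for them.

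Egr1, the most studied member of its family and a factor induced by growth factors, oxygen shortage and mechanical stress, was high at the end of shock and stayed high for 1 h. Its level was 8.65, 8.46, 6.86, 6.40 and 6.51 on the control arrays and 6.52, 7.86 and 8.19 on the minor trauma arrays. It was 11.71, 11.85, 11.51 and 11.64 in shock, 11.75, 10.61, 10.88 and 11.86 at 1 h, and 9.19, 8.86, 9.76 and 9.88 at 4.5 h. Every array after shock lay above every control and minor trauma array, while the controls themselves ran from 6.40 to 8.65. Egr1 rose 19.7-fold at the end of shock (4.30 ± 0.43 over control, SE, limma adjusted p = 8.78e-07) and was 14.9-fold above control at 1 h (3.90 ± 0.43, adjusted p = 1.68e-06). At 4.5 h it was still 4.13-fold above control (2.04 ± 0.43, adjusted p = 0.000649). Shock against minor trauma gave 4.16 ± 0.49 (adjusted p = 2.61e-05). Egr1 fell by 1.85 ± 0.45 at 4.5 h against 1 h (adjusted p = 0.00319), and 1 h against shock gave -0.40 ± 0.45 (adjusted p = 0.856), with a 95% interval from -1.29 to 0.48. At 1 h the 2 arrays with the spike-in averaged 10.75 and the 2 without it 11.80. Egr1 at 1 h against shock was -0.96 within the first kind and 0.12 within the second.

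Egr2, a factor known for myelination and for restraint of T cells, was at a low level and was highest at 1 h. Its level was 3.66, 4.21, 4.03, 3.79 and 4.14 in controls and 3.56, 2.94 and 3.51 in minor trauma. It was 5.12, 5.16, 4.91 and 4.28 in shock, 5.84, 6.28, 6.09 and 6.12 at 1 h, and 4.58, 4.43, 4.90 and 5.23 at 4.5 h. All control and minor trauma arrays lay below the array median and all 1 h arrays above it, so folds against those groups are lower bounds. Egr2 was at least 1.20-fold above control in shock (mean 4.87 in shock, against 3.97 in controls, limma adjusted p = 0.0347 with no filter) and at least 2.78-fold at 1 h (mean 6.08, adjusted p = 1.4e-06). In shock 3 of the 4 arrays lay above the array median. At 4.5 h Egr2 was called as well (mean 4.78, adjusted p = 0.00822), with 2 of the 4 arrays above the median. Its 1.13-fold over the array median at 4.5 h is therefore no firm bound. With the filter the call in shock was lost when control array 1 or 4 or shock array 1, 2 or 3 was left out (adjusted p from 0.0587 to 0.107). With no filter, Egr2 rose by 1.21 ± 0.24 at 1 h against shock (limma adjusted p = 0.0119) and fell by 1.30 ± 0.24 at 4.5 h against 1 h (adjusted p = 0.000336). The sizes of both steps rest partly on shock and 4.5 h levels below the array median. Minor trauma and control both lay below the array median, and no difference between them is given. Its other probe set, 1427682_a_at, passed the filter only through shock and 1 h arrays and is given without a test, with a mean of 6.11 at 1 h, against 3.26 in controls that all lay below the array median.

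Egr3, which acts with Egr2 in lymphocytes, was low by both of its probe sets, which did not run together. The one with the higher mean, 1421486_at, gave 3.63, 4.82, 4.05, 3.0 and 4.48 in controls, 4.33, 4.04 and 3.73 in minor trauma and 4.47, 3.55, 5.29 and 4.02 in shock. At 1 h it gave 3.23, 4.53, 5.08 and 3.28, and at 4.5 h 5.34, 4.0, 3.03 and 3.0, so the groups overlapped throughout. No comparison was called with it, and the F test over the 5 groups gave an adjusted p of 0.933. The other, 1436329_at, gave 5.16, 5.05, 4.81 and 4.38 at 1 h, against 3.48, 2.72, 3.64, 3.50 and 3.71 in controls. This probe set passed the filter only through 3 arrays at 1 h and lay below the array median on all others, so the choice of probe sets already fixes that contrast and no test of it is given. Probe set 1421486_at lay above the median on 4 of the 20 arrays. Egr4, the family member outside the 9, was called in none of the 7 comparisons.

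**Figure D2:**
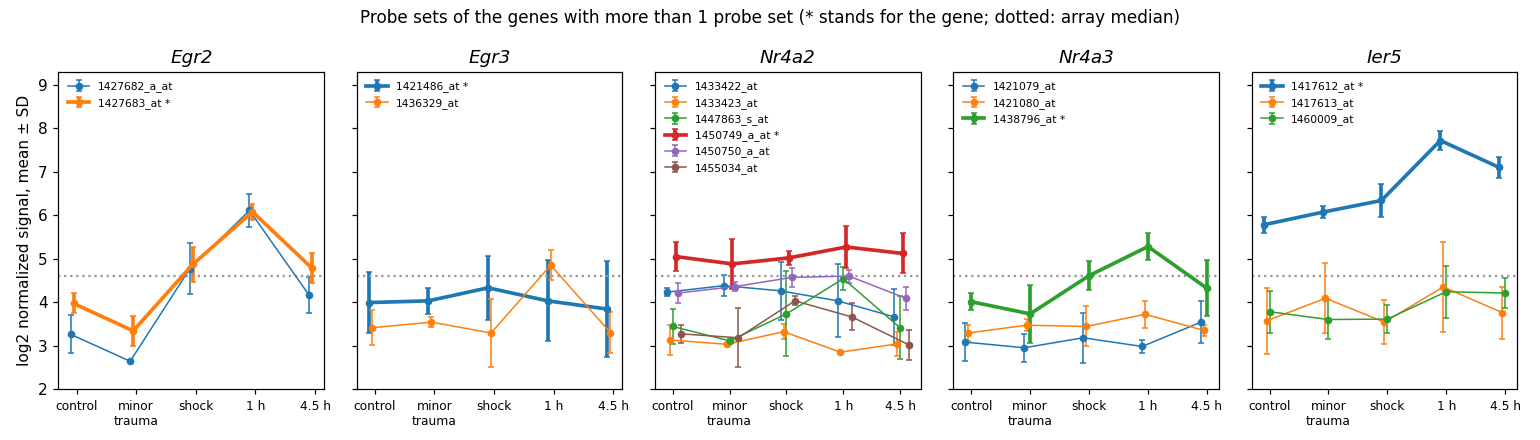
Mean log2 normalized signal ± SD of every probe set of the 5 genes with more than 1 probe set, by group; the starred probe set stands for the gene and the dotted line is the array median. The 2 probe sets of Egr2 run together, while for Egr3 1436329_at has its highest mean at 1 h (4.85) and 1421486_at does not (4.03).

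Among the Nr4a receptors, Nr4a1 rose in shock, Nr4a3 rose at 1 h, and Nr4a2 was called in no comparison. Nr4a1 was at 5.37, 5.31, 4.91, 5.06 and 5.11 in controls and at 5.68, 4.69 and 5.48 in minor trauma. It was at 7.81, 8.19, 8.08 and 8.00 in shock, 8.55, 7.39, 7.65 and 8.31 at 1 h, and 6.25, 6.20, 5.99 and 6.04 at 4.5 h. No array after shock overlapped with controls, and no shock or 1 h array with 4.5 h. Nr4a1 rose 7.30-fold in shock (2.87 ± 0.21 over control, limma adjusted p = 1.82e-08), was 7.09-fold above control at 1 h (2.83 ± 0.21, adjusted p = 9.07e-09) and 1.96-fold at 4.5 h (0.97 ± 0.21, adjusted p = 0.000926). It was 2.74 ± 0.24 higher in shock than in minor trauma (adjusted p = 3.78e-07). It fell by 1.86 ± 0.22 at 4.5 h against 1 h (adjusted p = 2.12e-06), and 1 h against shock gave -0.04 ± 0.22, with an interval from -0.48 to 0.39. The 1 h arrays with the spike-in averaged 7.52 and those without it 8.43, so that 1 h against shock was -0.61 within the first kind and 0.52 within the second, neither of them called.

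Nr4a2, known for its part in dopamine neurons, was at 4.51, 5.23, 5.24, 5.31 and 4.96 in controls by 1450749_a_at and at 4.23, 5.15 and 5.27 in minor trauma. It was at 5.06, 5.16, 4.80 and 5.08 in shock, 5.29, 4.87, 5.96 and 4.97 at 1 h, and 5.81, 4.96, 4.82 and 4.89 at 4.5 h. All groups overlapped. The difference from control was -0.03 ± 0.26 in shock (interval from -0.54 to 0.48) and 0.22 ± 0.26 at 1 h (interval from -0.29 to 0.73), and no comparison was called with any of the 3 probe sets that passed the filter. Of the 3 that did not pass, 1455034_at ran from 3.92 to 4.13 in shock against 2.94 to 3.49 in controls, and 1447863_s_at from 4.31 to 4.93 at 1 h against 3.05 to 4.12 in controls. These 2 lay below the array median on all arrays and on all but 2, and were not tested.

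Nr4a3 was low and highest at 1 h. It was at 3.93, 4.15, 4.22, 3.71 and 4.04 in controls and at 4.22, 2.98 and 3.98 in minor trauma. It was at 4.77, 4.86, 4.69 and 4.13 in shock, 5.12, 5.22, 5.75 and 5.03 at 1 h, and 5.0, 3.45, 4.37 and 4.47 at 4.5 h. All 5 controls lay below the array median and all 1 h arrays above it. Nr4a3 was at least 1.60-fold above control at 1 h (mean 5.28 at 1 h, against 4.01 in controls, limma adjusted p = 0.0079 with no filter). In shock its mean of 4.61 was at the array median, so no fold over control can be given, and it was not called (adjusted p = 0.428). It fell by 0.96 ± 0.30 at 4.5 h against 1 h (limma adjusted p = 0.0257 with no filter), a call that with the filter was lost without 1 h array 3 (0.0731) or 4.5 h array 2 (0.0933). Only 1 of the 4 arrays at 4.5 h lay above the array median, so the size of this fall is a fitted value and not a measured fold. Each of the 3 promoters printed above holds 4 copies of the cAMP response element core. Nr4a1 was called against control in shock, at 1 h and at 4.5 h, Nr4a3 at 1 h and Nr4a2 at none of these. Whether these changes from control differ between the 3 genes, or have to do with the motifs, was not tested. From shock to 1 h the arrays of the 2 groups overlapped for each pair of Nr4a genes in the per-array difference between the genes. From 1 h to 4.5 h they did not overlap for Nr4a1 less Nr4a2 (-1.70) and Nr4a2 less Nr4a3 (0.81). Both pairs had the smallest two-sided exact permutation p that 4 against 4 arrays can give, 0.0286, which becomes 0.228 over the 36 pairs of members. At least 21 of the 36 pairs would have to reach that p for any to pass.

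Ier2 was high in shock and at 1 h. Its level was 8.34, 7.67, 8.14, 7.77 and 7.20 in controls and 7.42, 7.23 and 7.53 in minor trauma. It was at 10.05, 10.84, 10.40 and 10.95 in shock, 10.25, 9.01, 9.70 and 10.27 at 1 h, and 7.98, 7.94, 7.71 and 8.18 at 4.5 h. The shock and 1 h arrays lay above all controls, and the 4.5 h arrays lay within the range of the controls. Ier2 rose 6.66-fold in shock (2.74 ± 0.25 over control, limma adjusted p = 2.17e-07) and was 3.96-fold above control at 1 h (1.98 ± 0.25, adjusted p = 9.08e-06). At 4.5 h the difference from control was 0.13 ± 0.25 (adjusted p = 0.721), with an interval from -0.35 to 0.61. Ier2 was 3.17 ± 0.28 higher in shock than in minor trauma (adjusted p = 3.78e-07) and fell by 1.86 ± 0.26 at 4.5 h against 1 h (adjusted p = 1.34e-05). At 1 h against shock it differed by -0.75 ± 0.26 (interval from -1.26 to -0.25), which did not pass after adjustment over all genes (limma adjusted p = 0.212). The 1 h arrays with the spike-in averaged 9.36 and those without it 10.26. Ier2 at 1 h against shock was -1.28 within the first kind and -0.24 within the second.

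Ier3 was high in shock and highest at 1 h. It was at 4.61, 4.79, 5.15, 5.05 and 4.94 in controls and at 5.64, 5.88 and 6.19 in minor trauma. It was at 8.25, 8.83, 8.96 and 6.81 in shock, 9.44, 9.97, 10.03 and 9.95 at 1 h, and 8.32, 8.04, 8.90 and 8.14 at 4.5 h. Each of the 4 other groups lay wholly above the controls, and 1 shock array was lower than the rest. Ier3 rose 9.86-fold in shock (3.30 ± 0.30 over control, limma adjusted p = 2.92e-07), 30.7-fold at 1 h (4.94 ± 0.30, adjusted p = 6.99e-10) and 10.9-fold at 4.5 h (3.44 ± 0.30, adjusted p = 1.68e-08). In minor trauma the difference of 0.99 ± 0.33 did not pass (adjusted p = 0.0905). Ier3 rose by 1.64 ± 0.32 at 1 h against shock (adjusted p = 0.00847) and fell by 1.49 ± 0.32 at 4.5 h against 1 h (adjusted p = 0.00107). Shock against minor trauma gave 2.31 ± 0.35 (adjusted p = 0.00039). The minor trauma arrays did not overlap with controls for Ier3, as for 7.33% of all genes, while 3.44% were called.

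Ier5 was first called at 1 h. By 1417612_at it was at 6.07, 5.61, 5.80, 5.64 and 5.79 in controls and at 5.97, 6.23 and 6.00 in minor trauma. It was at 6.72, 6.27, 6.52 and 5.85 in shock, 7.74, 7.90, 7.84 and 7.41 at 1 h, and 6.88, 7.44, 7.13 and 6.95 at 4.5 h. The 1 h and 4.5 h arrays lay above all controls, and 1 shock array lay within the range of the controls. In shock the difference of 0.56 ± 0.17 did not pass (limma adjusted p = 0.0745), and without shock array 4 it did (0.72, adjusted p = 0.0127). Ier5 rose 3.84-fold at 1 h (1.94 ± 0.17 over control, adjusted p = 4.95e-08) and was 2.49-fold above control at 4.5 h (1.32 ± 0.17, adjusted p = 2.33e-06). It rose by 1.38 ± 0.18 at 1 h against shock (adjusted p = 0.000107) and fell by 0.62 ± 0.18 at 4.5 h against 1 h (adjusted p = 0.00889). Its other probe set that passed the filter, 1417613_at, averaged 4.35 at 1 h, against 3.57 in controls, and was called in no comparison. Ier5l, the related gene outside the 9, was called in none of the 7 comparisons.

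**Figure D3:**
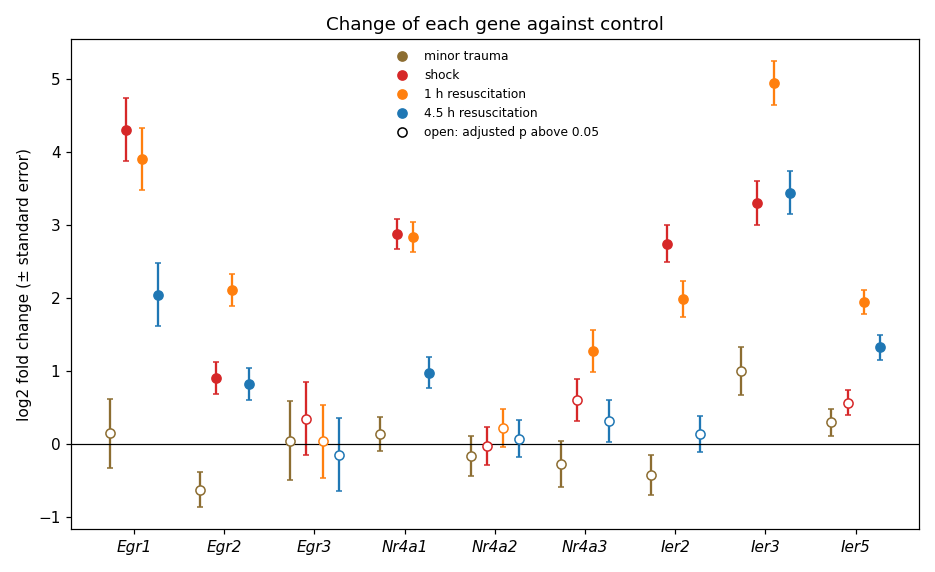
Log2 difference of each gene from control ± standard error for minor trauma, for shock and for both times of resuscitation; filled points passed limma's test at an adjusted p of at most 0.05 and open points did not. No gene is filled in minor trauma, 5 are in shock, 7 at 1 h and 5 at 4.5 h; for Egr2 and Nr4a3 the controls lie below the array median, and the points are fitted values, not measured folds.

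Shock was also set against minor trauma, a comparison in which injury, hemorrhage and time cannot be told apart. The same 5 genes that were called against control were higher in shock, Egr1, Egr2, Nr4a1, Ier2 and Ier3, and 4.18% of all genes were. From the end of shock to 1 h of resuscitation 3 of the 9 rose, Egr2, Ier3 and Ier5, and none fell, while 0.873% of all genes were higher. From 1 h to 4.5 h 7 of the 9 fell, Egr1, Egr2, Nr4a1, Nr4a3, Ier2, Ier3 and Ier5, and 18.2% of all genes were lower. The filter favours a difference for Egr2 and Nr4a3, which passed it only through shock and resuscitation arrays. Without these 2 genes, left out after their values were seen, 4 of the other 7 were higher in shock than in minor trauma. Likewise 2 of the 7 rose from shock to 1 h, and 5 fell from 1 h to 4.5 h. At 4.5 h against the end of shock Ier5 was higher (0.76 ± 0.18, limma adjusted p = 0.00177), and Egr1, Nr4a1 and Ier2 were lower, by 2.25 ± 0.45, 1.90 ± 0.22 and 2.61 ± 0.26 on the log2 scale, with 37.4% of all genes called in either direction. These comparisons share groups with those above. Of 64 values of the 32 called results refitted within the arrays with or without the spike-in alone, 64 kept their direction and 22 were no longer called. Calls were lost within both kinds for Egr2 in shock against control, for Egr2 and Ier3 at 1 h against shock, for Nr4a3 at 1 h against control and at 4.5 h against 1 h, and for Ier5 at 4.5 h against 1 h. With the kind of array as a block in the fit to all arrays, all 32 results stayed called.

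**Figure D4:**
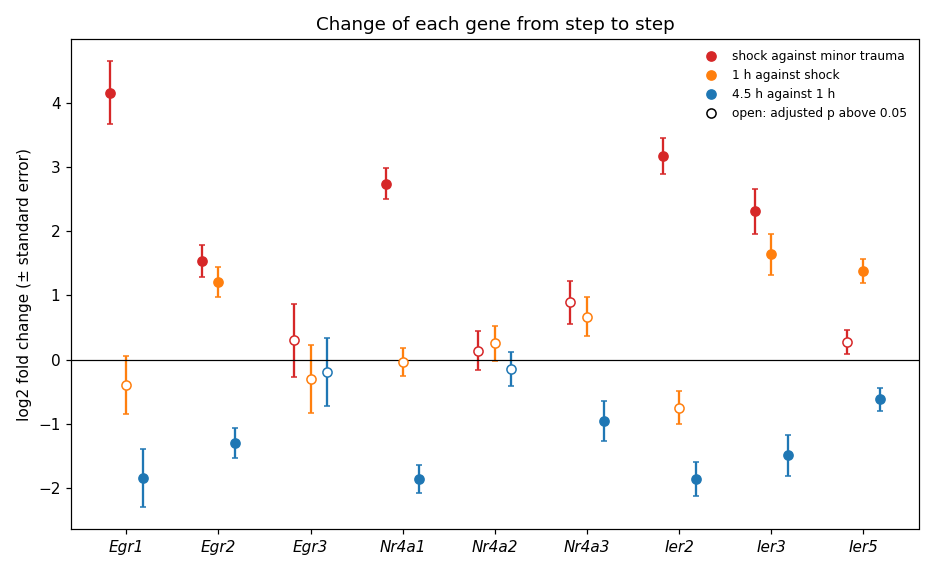
Log2 difference of each gene ± standard error for 3 steps, namely shock over minor trauma, 1 h over shock and 4.5 h over 1 h; filled points passed limma's test. The points of Egr2 and Nr4a3 over minor trauma, which lies below the array median, are fitted values. So are their points for the other steps, where some shock or 4.5 h arrays lie below it. From shock to 1 h Egr2, Ier3 and Ier5 are filled above 0, and from 1 h to 4.5 h 7 genes are filled below 0.

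The order of the group means differed between genes. Egr1, Nr4a1 and Ier2 had their highest mean in shock, followed by 1 h, and these neighbours did not differ beyond the spread of the arrays. Egr2, Nr4a3, Ier3 and Ier5 had their highest mean at 1 h. For each of these 4 genes shock array 4, the brightest array as deposited (trimmed mean 166.6), was the lowest in shock. With any 1 array left out, Egr2, Ier3 and Ier5 stayed called at 1 h against shock (lowest 1.01, 1.17 and 1.21). For Egr2, Ier3 and Ier5 the 1 h mean differed from the next group in the order, shock for Egr2 and 4.5 h for Ier3 and Ier5. For Nr4a3 no neighbours in the order differed. For Egr1 and Nr4a1 the 4.5 h mean also differed from the minor trauma mean below it, by 1.90 ± 0.49 and 0.84 ± 0.24 (limma adjusted p = 0.00572 and 0.0118, with 29.3% of all genes called in either direction). Ier5 at 4.5 h differed from shock, the next group below. Ier2 at 4.5 h was not called against the control and minor trauma means below it, with an interval from 0.02 to 1.11 against minor trauma. Egr3 ran in the order shock, minor trauma, 1 h, control and 4.5 h, and Nr4a2 in the order 1 h, 4.5 h, control, shock and minor trauma, with no neighbours that differed. In all, 11 of the 36 pairs of neighbours differed. Whether 2 genes changed unequally from shock to 1 h was tested for the 36 pairs of members on the per-array difference between the genes. The arrays of the 2 groups did not overlap for 15 pairs, Ier2 against Ier3 (-2.39) and Ier2 against Ier5 (-2.13) among them. Each of these reached p = 0.0286, the smallest that a two-sided exact permutation test of 4 against 4 arrays can give, and after adjustment over the 36 pairs (0.0686) none passed. From 1 h to 4.5 h 4 pairs did not overlap (adjusted exact permutation p = 0.228).

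Within the 1 h group, 7 of the 9 genes had no overlap between the 2 arrays with the spike-in and the 2 without it, as had 38.4% of all genes, and the median difference over all genes was 0.18 in size. Egr1, Nr4a1 and Ier2 were lower on both arrays with the spike-in, and Egr3, Nr4a3, Ier3 and Ier5 were higher. At 4.5 h 5 of the 9 did not overlap against 30.4% of all genes, in shock 2 against 31%, in minor trauma 5 against 63.9% (2 arrays with the spike-in and 1 without), and in controls 1 against 19.1%. The part of the spike-in kind in the order of shock and 1 h was not tested beyond the refits above.

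As a description over the 20 arrays, which share the group differences, the genes closest in pattern were named by Pearson's r. Egr1, Nr4a1 and Ier2 each had Fos and Atf3 among their closest 3, at 0.933 and 0.923 for Egr1, 0.967 and 0.974 for Nr4a1, and 0.927 and 0.917 for Ier2. The remaining gene was Btg1 for Egr1 (0.916), Stk17b for Nr4a1 (0.946) and Ccn1 for Ier2 (0.942). Ier3 was closest to Ccl4 and Nfkbia (0.975 each) and Cxcl2 (0.973), which encode 2 chemokines and the NF-kB inhibitor. Ier5 was closest to Ccl2 (0.956), Samsn1 (0.945) and Tnfaip3 (0.939), and Egr2 to Midn (0.915), Pde4b (0.912) and Snx18 (0.908). Nr4a3 was closest to Bhlhe41 (0.824), Prkab2 (0.82) and Rab20 (0.811). The closest genes reached only 0.693 for Egr3 (Dus2) and 0.773 for Nr4a2 (Ptchd1). Between members, r was 0.93 for Egr1 with Nr4a1 and for Nr4a1 with Ier2, 0.88 for Ier3 with Ier5 and with Egr2, and 0.34 for Ier2 with Ier5.

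Other early-response genes, a list of 43 such as Fos, Jun and the Dusp phosphatases of which 42 were tested, included genes called in minor trauma. There 6 rose and none fell, Gadd45b, Gadd45g, Jun, Plk3, Fosl2 and Junb, with Gadd45b at 3.23 ± 0.70 and Jun at 2.02 ± 0.44 over control, where 3.44% of all genes were called. The controls ran widely, from 2.85 to 7.43 for Gadd45b and from 6.17 to 9.64 for Gadd45g. They overlapped with minor trauma, which ran from 7.31 to 8.47 and from 9.45 to 10.43. Fosl2 and Junb overlapped as well, and Jun and Plk3 did not. In shock 29 rose and none fell, led by Gadd45b (5.46 ± 0.65), the stress factor Atf3 (5.30 ± 0.24), Jun (5.21 ± 0.41) and Fos (4.34 ± 0.26), and at 1 h 32 rose and none fell, against 2.03% and 4.61% of all genes that were higher. At 4.5 h 27 were higher than in controls, and Mafg (-1.01 ± 0.17) and Zfp36l2 (-0.73 ± 0.24) were lower, with 15.1% of all genes higher and 23.8% lower. From shock to 1 h 3 rose, Dusp5, Trib1 and Mafk, and 5 fell, Dusp1, Klf2, Klf4, Klf10 and Rgs2, with Klf2 at -1.91 ± 0.29. Of all genes 0.873% were higher and 0.374% lower. From 1 h to 4.5 h 22 fell and 3 rose, Ccn2, Rgs2 and Klf2, while 18.2% of all genes were lower and 14.9% higher. The list's median difference from control was 0.48 for minor trauma, 1.65 for shock, 1.48 after 1 h and 0.91 after 4.5 h, and 0.47, 1.65, 1.41 and 0.81 with genes below the array median at their bound. Dusp5 and Fosl1 lay below the array median on every control array, so the filter favours a difference for them. Whether the list and the members differed in minor trauma was not tested.

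Of 16 factors that act on early-response promoters (serum response factor, ternary complex factors, CREB and MEF2 factors and coactivators), none was called in shock or in minor trauma against control. At 1 h Srf, which encodes serum response factor, was higher (0.75 ± 0.14, limma adjusted p = 0.000932) and the coactivator gene Ep300 lower (-0.41 ± 0.12, adjusted p = 0.0352). Of all genes 4.61% were higher and 5.31% lower. At 4.5 h 4 were higher, Crem (1.21 ± 0.15) and Ep300 (0.66 ± 0.12) at the top with Mrtfa and Crebbp, and 3 were lower, Elk3 (-1.73 ± 0.21), Mef2c and Mrtfb, against 15.1% of all genes that were higher and 23.8% that were lower. These are mRNA levels, and many of these factors are known to be regulated by phosphorylation. The list median was 0.02 in minor trauma, 0.10 in shock and -0.07 at 1 h.

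Egr corepressors and reported Egr1 targets had 17 members tested. None was called in minor trauma, 6 were higher and none lower in shock, 10 were higher and none lower at 1 h, and 8 were higher and 2 lower at 4.5 h. Tnf, Ptgs2 and Timp1, among those counted as higher, lay below the array median on every control array, so the filter favours a difference for them. Of all genes, 2.03% were higher in shock, 4.61% at 1 h and 15.1% at 4.5 h, and 23.8% were lower at 4.5 h, so the share of the list that was lower at 4.5 h was under that of all genes. The chemokine gene Cxcl2 was 5.55 ± 0.42 above control in shock and 6.91 ± 0.42 at 1 h, Il1b 3.60 ± 0.38 in shock and 4.26 ± 0.38 at 1 h, and the cell cycle inhibitor Cdkn1a 2.91 ± 0.49 in shock and 3.67 ± 0.49 at 1 h. Ccl2 was not called in shock and was 4.42 ± 0.43 above control at 1 h. The corepressor Nab1 was called in none of the comparisons with control, while Nab2 was lower at 4.5 h (-1.24 ± 0.34, limma adjusted p = 0.00566) with the tissue factor gene F3. Many of these genes are also NF-kB targets. The list median was 0.28 for minor trauma, 0.51 for shock, 1.00 after 1 h and 0.60 after 4.5 h, and 0.00, 0.19, 0.54 and 0.25 with genes below the array median at their bound.

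Of 16 reported Nr4a partners and targets in liver, 4 rose in shock and none fell: Pdk4 (2.47 ± 0.43), which encodes a brake on glucose oxidation, Srebf1 (1.59 ± 0.27), the glucose-6-phosphatase gene G6pc (1.51 ± 0.31) and Nr0b2 (1.09 ± 0.30), with 2.03% of all genes higher. At 1 h Pdk4 (2.97 ± 0.43), Srebf1 and Ppargc1a were higher than in controls, and the bile acid enzyme gene Cyp7a1 (-1.78 ± 0.42) and Fgf21 were lower, with 4.61% of all genes higher and 5.31% lower. At 4.5 h 10 were lower, with Cyp7a1 at -4.37 ± 0.42, G6pc at -3.33 ± 0.31 and Cyp8b1 at -1.92 ± 0.18, and 2 were higher, Pdk4 (2.18 ± 0.43) and Fbp2 (1.07 ± 0.39), while 23.8% of all genes were lower and 15.1% higher. G6pc averaged 6.97 at 4.5 h, against 10.30 in controls. In minor trauma only Ppargc1a was called, lower by 1.02 ± 0.27, where 3.44% of all genes were called in either direction. The list median was 0.02 in shock, -0.16 at 1 h and -0.86 at 4.5 h, and -0.67 at 4.5 h with bounds.

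Of 11 Ier family members and partners, 4 rose in shock and none fell: Tnfaip3 (2.33 ± 0.34), Hspa1a (1.78 ± 0.38), Nfkbia (1.21 ± 0.12) and Mcl1 (0.52 ± 0.14). At 1 h 5 were higher and none lower, with Tnfaip3 at 4.99 ± 0.34 and Hspa1a, the heat shock gene whose factor Ier5 is known to activate, at 3.01 ± 0.38, followed by Nfkbia (1.76 ± 0.12), Hspa1b (1.72 ± 0.29) and Mcl1 (1.03 ± 0.14). At 4.5 h 6 were higher and 1, Ppp2r5a, lower, while of all genes 15.1% were higher and 23.8% lower. In shock and at 1 h 2.03% and 4.61% of all genes were higher. In minor trauma Ppp2r5a was the 1 gene called, at -0.62 ± 0.11 (limma adjusted p = 0.0151), where 3.44% of all genes were called in either direction. Tnfaip3 and Nfkbia, both feedback inhibitors of NF-kB, were higher at 1 h than in shock, Tnfaip3 by 2.66 ± 0.36 and Nfkbia by 0.54 ± 0.13, as were Ier3 and Ier5. The list median was 0.32 in shock, 0.63 at 1 h and 0.71 at 4.5 h.

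Markers of neutrophils, Kupffer cells and sinusoidal endothelial cells differed between the groups. The summed signal of the 8 tested of 12 neutrophil markers was 113.4 to 399.2 in controls, 284 to 575.1 in minor trauma, 528.3 to 2338 in shock, 2706 to 4211 at 1 h and 4053 to 4580 at 4.5 h. Most of this sum at 1 h and 4.5 h came from S100a8 and S100a9. Mpo (mean 4.29 in controls and 4.31 at 4.5 h) and Elane (4.22 and 4.61) were low and were called against control in no group. At 1 h against shock 2 of the 8 were called, Ngp (1.50 ± 0.18) and Mmp8 (1.46 ± 0.23), and S100a8 and S100a9 were not (limma adjusted p = 0.46 and 0.253). In that comparison 0.873% of all genes were higher. The 10 Kupffer cell markers summed to 3115 to 5096 in controls, 3355 to 5239 in minor trauma, 3609 to 4337 in shock, 2635 to 3482 at 1 h and 1364 to 1909 at 4.5 h. The 9 sinusoidal endothelial markers summed to 2182 to 2991 in controls, 2556 to 3615 in minor trauma, 2815 to 3286 in shock, 2380 to 2897 at 1 h and 1522 to 1722 at 4.5 h. Of these lists, at 4.5 h against control 6 of the 8 neutrophil markers were higher, 9 of the 10 Kupffer cell markers were lower and Marco was higher, and 7 of the 9 endothelial markers were lower and Lyve1 was higher, against 15.1% of all genes higher and 23.8% lower. In the same comparison 2 of the 5 tested monocyte markers were higher (Chil3 and Fcgr1) and Lyz2 was lower, 2 of 10 stellate cell and fibroblast markers were lower (Lrat and Reln), and 1 of 3 T and NK cell markers (Gzma), 2 of 3 cholangiocyte markers (Sox9 and Epcam) and 2 of 3 platelet markers (Ppbp and Pf4) were higher. None of the 4 B cell markers and not the 1 erythroid marker tested was called by limma in this comparison, and 0 of these had an unadjusted p under 0.05. In minor trauma against control S100a8, S100a9 and Marco were higher, where 3.44% of all genes were called in either direction. At 1 h against control Chil3, Acta2, Sox9 and Pf4 were higher and Hand2 lower among these other lists, and in shock Pf4 was higher. Of the 8 neutrophil markers, 5 were higher than in controls in shock and 6 at 1 h. The Kupffer cell marker Vsig4 was lower and the endothelial marker Lyve1 higher than in controls at 1 h. Of all genes 4.61% were higher and 5.31% lower at 1 h, and 2.03% were higher in shock. Chil3 and the neutrophil marker Mmp9 lay below the array median on every control array, so the filter favours a difference for them. The part of these cell types in the levels of the 9 genes was not tested.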

How the data were processed

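Expression was measured on 20 Affymetrix Mouse430_2 arrays, 1 per sample, from whole liver RNA. The deposited values are intensity signals on a linear scale from MAS5, the tool that the submitters' processing notes name, deposited by the authors; the version of MAS5 is not given in the sources used here. Between arrays, the 2% trimmed means of the arrays differed by up to 2.565-fold, so the deposited signals had not been scaled between arrays. A pseudocount of 6, near the 25th percentile of all signals (5.586), was added before log2, and values were quantile normalized. Of 45101 probe sets, 34945 had 1 gene in the platform annotation, 932 several and 9160 none, and 64 were controls. Probe sets had to exceed the array's median signal on 3 or more arrays (27274 did, 22818 of them with 1 gene), and for each gene the one of these with the highest mean was used.

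One linear model of 5 group means over 20 arrays was fitted with limma 3.58.1 (R 4.3.3), with an intensity trend, and in each comparison the Benjamini-Hochberg adjustment ran over 12832 genes. For a gene not above the array median (4.60) on any array of the lower group, the fold is a bound, with that median in place of the lower values. The fit was tested on simulated data. The number of arrays limits the precision. Replicate numbers in the labels were checked as pairs: of 36 pairs with the same number in different groups, 3 correlated above 0.1 (median 0.004), so they were not used as pairs.

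The members and the lists were chosen with earlier results of these data known. All 9 members are named, with the 3 genes of highest correlation and up to 4 called genes with the largest change per list and comparison. Further called genes where a count was small, Egr4, Ier5l and the Nab genes are named too, chosen after their values were seen. Alternatives were other scalings, pseudocounts of 1 and 18, no filter, mean probe sets, no trend, array weights, blocks, and arrays left out. Other probe sets of a gene and, against control, unadjusted exact permutation tests were counted with these. Promoters came from RefSeq. No protein sequences were used here. The promoter search and the figures used numpy 2.4.6, pandas 2.3.3 and matplotlib 3.10.9 under python 3.11.15.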

Additional observations from a re-analysis of the deposited data

Results flagged for a closer look

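Of 36 sets of 4 or 5 arrays (9 genes in 4 groups), 2 held an array far from the others of its group by Dixon's ratio, where chance puts about 5% of such sets past its limit. Nr4a2 was at 5.81 on 4.5 h array 1, and the other 3 arrays of that group ran from 4.82 to 4.96. Ier3 was at 9.44 on 1 h array 1, and the other 3 arrays ran from 9.95 to 10.03.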

How the results depend on the processing

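Of the 32 called results of single genes among the 63, 1083 alternatives left 1043 on their side of the threshold, ended 40 calls and reversed none. Besides refits, these held other probe sets of a gene and, against control, exact permutation tests judged at an unadjusted p of 0.05. Among these probe sets was the other one of Egr2, which passed the filter only through shock and 1 h arrays. The filter favours a difference for it, so its results in this count are no support for the calls of Egr2. Most of the refits left out 1 array each. With the signals as deposited, which shifts the median of all genes by 0.20 in minor trauma and by -0.27 at 4.5 h against control, 1 member was called in minor trauma (Ier3, adjusted p = 0.0382), 3 instead of 5 at 4.5 h against control, and 7 instead of 11 neighbouring groups differed. Centring on the median also called 1 member, Ier3, in minor trauma (adjusted p = 0.0314). With the spiked arrays alone 6 neighbours differed, and 1 member was called at 1 h against shock, 4 at 4.5 h against 1 h and 3 at 4.5 h against control; with the unspiked arrays alone these were 5 neighbours, 0 (at 1 h against shock), 3 (at 4.5 h against 1 h) and 1 in shock against minor trauma. Those refits hold fewer arrays. Leaving out 1 array gave 0 to 1 member in minor trauma, 1 without shock array 4 (Ier3, adjusted p = 0.0232). By 1436329_at, which lay below the array median on all shock arrays and passed the filter only through 1 h arrays, Egr3 at 1 h against shock came to 1.56, of the opposite sign, which is no measured reversal. As deposited, Egr2 lost its calls in shock (adjusted p = 0.285), at 4.5 h against control and at 1 h against shock, Nr4a1 lost its call at 4.5 h against control (0.0724), and Ier5 (0.0696) and Nr4a3 (0.0515) at 4.5 h against 1 h; the cause was not tested. With the replicate block the counts of called members were the same in every comparison (5 for shock, 7 after 1 h and 5 after 4.5 h, each set against control), and calls over all genes in minor trauma numbered 1143 instead of 441. Counts over all genes ran over the refits from 0 to 1223 in minor trauma, 53 to 758 in shock, 290 to 1901 at 1 h and 2643 to 5703 at 4.5 h against control, from 3 to 1806 in shock against minor trauma, 1 to 412 at 1 h against shock and 1446 to 4958 at 4.5 h against 1 h. Egr2, Egr3, Nr4a2 and Nr4a3 lay near the array median, which limits what their folds can show.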
